A study of Mus musculus with 18 samples.

Results

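Isoforms that put annotated splice sites together in a combination absent from the annotation were followed through cells and small extracellular vesicles (sEVs) of mouse brain cultures. The members were the isoforms of the deposited table in the category novel_in_catalog, leaving out the subcategory of intron retention. They numbered 15514 of 114425 isoforms (13.6%) and held 287963 of 10234812 reads (2.81%). The label of known splice junctions covers the members only in part, because the rule takes in 2 subcategories. In 8176 members every junction is annotated and only their combination is new. In the other 7338 members each splice site is annotated but at least one pair of sites is joined that the annotation does not join. The first kind is called a junction member here and the second a splice-site member, and they held 67.5% and 32.5% of the member reads.

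The study measured polyadenylated RNA of primary cultures from mouse brain with PacBio reads of full-length cDNA. Its 6 groups were astrocyte cells, microglia cells, neuron cells, astrocyte sEVs, microglia sEVs and neuron sEVs, with 3 libraries each. No genotype, strain, age or treatment is used here, and no label ties the replicate numbers to cultures or animals, so a p-value here speaks only of the spread among libraries, which may be technical. Cells were sequenced in 1 pool and sEVs in another, and below fraction and pool cannot be told apart.

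Most genes of the mammalian brain are transcribed into a precursor from which introns are removed, and the exons that remain can be joined in several ways. The spliceosome pairs a donor site with an acceptor site, and choices at distant exons can be made separately, so a gene with a few optional exons can give many transcripts. A long read spans the whole transcript and so records which choices occur together. A full-splice match is a read model whose junctions all equal those of 1 annotated transcript, and it is the reference kind below.

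Library totals ran from 434298 to 683381 reads (median 561932), and member reads from 8022 to 22815. Ftl1, a ferritin subunit, took 14.9 to 31.5% of the reads in the astrocyte and neuron sEV libraries and 0.441 to 6.94% elsewhere, and the predicted gene Gm42047 took 6.76 and 8.94% in replicate 1 of the astrocyte and neuron sEVs. Defining markers of each cell type were highest in the libraries labelled for it, at 12931 to 27301 counts per 1000000 reads for 10 astrocyte markers, 2363 to 12168 for 12 microglia markers and 2877 to 7358 for 10 neuron markers. Oligodendrocyte lineage markers reached 9084 counts per 1000000 reads in astrocyte cells, and astrocyte markers 4453 in neuron sEVs. Their part in the results below was not tested. The smallest value above 0 in the table is 2 reads, so a 0 can hide a single read, and a 0 is treated as allowing up to 3 reads per library. Without molecular identifiers, intervals and floors here stand for counting error alone.

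Members came from 5790 of 17714 gene labels (32.7%). Of the 7578 genes with 100 or more reads, 4172 (55.1%) had at least 1 member. A host gene had a median of 2 members, 2673 host genes (46.2%) had 1, and 175 had 10 or more. Members were mostly scarce: the median was 4 reads over all 18 libraries, and 8040 members (51.8%) had 2 to 4 reads. Reads were concentrated in few of them, with 26.8% of member reads in the 100 best-read members and 49.0% in the 477 members with 100 or more reads. In host genes with 100 or more reads the members together made up a median of 3.41% of the gene's reads, and in 128 of these genes they made up over 50%.

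Recurrence over libraries was low. Of the members, 10297 (66.4%) had reads in 1 library only, and these held 19.4% of the member reads. Among full-splice matches the same share was 27.0%, and among the intron-retaining isoforms of the same category it was 73.3%. Members with reads in 2 or more libraries numbered 5217 and held 80.6% of member reads, 983 had reads in 6 or more, and 6 had reads in all 18. Scarcity and recurrence go together, so the kinds were also set side by side within 1 range of read number, inside which reads were not matched. From 100 to under 1000 reads, 459 members had reads in a mean of 7.86 libraries and 5338 full-splice matches in a mean of 12.4.

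**Figure D1:**
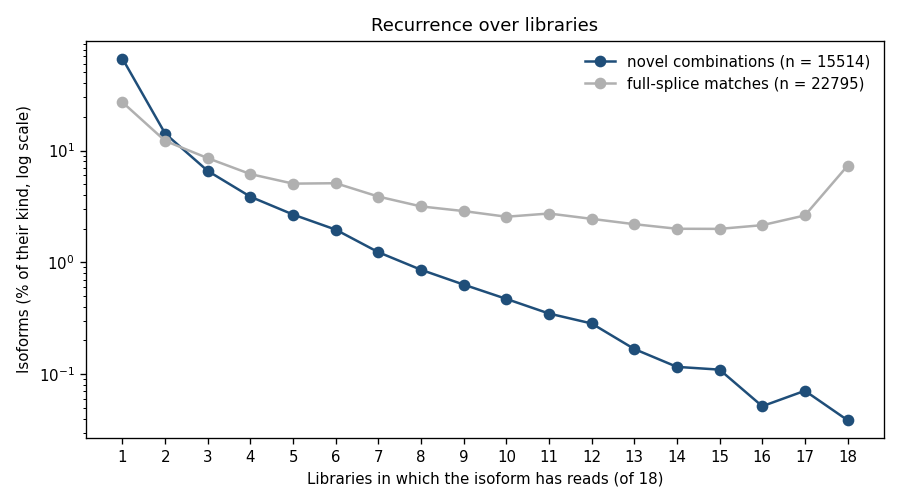
Percentage of isoforms (y axis, log scale) against the number of libraries in which the isoform has reads (x axis, 1 to 18), for members and for full-splice matches. Members fall from 66.4% at 1 library to 0.0387% at all 18, while 7.30% of full-splice matches had reads in all 18.

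Some well-read members sat almost wholly in a single library. Of the 477 members with 100 or more reads, 51 (10.7%) had at least 90% of their reads in 1 library, against 43 of 6756 full-splice matches (0.636%). This was not particular to members. From 100 to under 1000 reads it held for 10.7% of members and 21.4% of the intron-retaining isoforms of the same category. These 51 members came from 40 genes, and 37 lay in sEV libraries (20 in neuron sEVs and 14 in astrocyte sEVs) and 14 in cell libraries. H3f3b 47394, a splice-site member of a histone H3.3 gene, had 1299 reads in replicate 3 of the microglia cells and 0 in the other 17 libraries. Psap 1454, from the gene of the saposin precursor prosaposin, had 2297 reads in replicate 1 of the astrocyte cells, 153 in replicate 2 of the astrocyte sEVs and 0 elsewhere. Ctsl 61943, from the gene of the lysosomal protease cathepsin L, had all 288 reads in replicate 2 of the neuron cells. The numbers after gene symbols are the isoform numbers of the deposited table.

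In most of these cases the whole gene stood near its level in the other replicates. The gene's total CPM (counts per 1000000 reads of the library size scaled by the trimmed mean of M-values, TMM) in that library was a median of 1.06 times its mean in the other 2 replicates of the group, and the ratio lay between 0.5 and 2 for 43 of the 51. Without the member's own reads the median ratio was 0.422. H3f3b as a whole stood at 4607 CPM in replicate 3 of the microglia cells and at 3886 and 4892 CPM in the other replicates, while the member took 73.5% of the gene's reads there. Ctsl stood at 546 CPM in replicate 2 of the neuron cells against 644 and 594 CPM, and the member took 98.3% of its reads.

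Most members were seen in 1 cell type and 1 fraction, which is fixed in advance for the 10297 (66.4%) with reads in 1 library. The shares over all members therefore do not describe the 5217 with reads in 2 or more libraries. Reads in cells or sEVs of a single cell type were found for 12261 members (79.0%), and 801 (5.16%) had reads in all 3 cell types. Members with reads in cells only numbered 6574 (42.4%), in sEVs only 5738 (37.0%), and in both 3202 (20.6%). Per group, 4467 members had reads in any astrocyte cell library, 2775 in microglia cells, 5009 in neuron cells, 3805 in astrocyte sEVs, 2844 in microglia sEVs and 4048 in neuron sEVs. Of those, 11.5 to 13.2% in the cell groups and 4.84 to 7.58% in the sEV groups had reads in all 3 libraries, whereas for full-splice matches the ranges were 48.8 to 54.1% and 36.2 to 40.4%.

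For the members seen in sEVs, the share also seen in cells was compared across cell types as a description. Of the astrocyte sEV members 32.8% had reads in astrocyte cells, 27.8% in neuron cells and 13% in microglia cells. Of the microglia sEV members 32.7% had reads in microglia cells, 20.6% in astrocyte cells and 19% in neuron cells. Of the neuron sEV members 29.7% had reads in neuron cells, 24.5% in astrocyte cells and 10.6% in microglia cells. Of full-splice matches seen in sEVs, 77.2 to 78.7% had reads in the matching cells. These are shares of lists of unequal size and were not tested.

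Members with reads in all 3 libraries of 1 group and in no other library were few: 82 in neuron cells, 42 in microglia cells, 27 in astrocyte cells, 26 in neuron sEVs and 5 each in astrocyte and microglia sEVs. As a percentage of all members these were 0.529, 0.271 and 0.174% for the cells in that order, where full-splice matches had 1.08, 0.597 and 0.281%. For neuron, astrocyte and microglia sEVs they were 0.168, 0.0322 and 0.0322%, against 0.114, 0.0219 and 0.0526% of full-splice matches. By reads, 9 of the 10 that lead this class were in neuron cells, and 4 of them belonged to Meg3, a maternally expressed long non-coding RNA. Atp2b1 51790, from a plasma membrane calcium pump gene, had 83, 115 and 104 reads. Ndrg4 59174 had 103, 60 and 98 reads. Dbn1 53154, from the gene of the dendritic spine actin-binding protein drebrin, had 73, 16 and 61 reads, and Ank3 51638, from the gene of ankyrin-G of the axon initial segment, had 10, 24 and 51. The leading one outside neurons was Spp1 40912, from the gene of the secreted phosphoprotein osteopontin, with 51, 112 and 4 reads in microglia cells. Over all libraries together, the gene's other isoforms made up most of its reads for each of the 10.

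The share of reads held by members differed among the 3 cell types. It was 3.94% ± 0.143 (SD, n = 3) of all reads in neuron cells, 2.74% ± 0.230 in astrocyte cells and 2.01% ± 0.140 in microglia cells, and the libraries of the 3 groups did not overlap (3.84 to 4.10% in neurons, at most 3.003% in astrocytes and 1.85 to 2.09% in microglia). The 95% exact binomial (Clopper-Pearson) interval was 1.81 to 1.89% for the lowest library and 4.05 to 4.16% for the highest. An exact permutation test over the 9 cell libraries gave p = 0.00357, the smallest such a test can give, and 0.0214 after Benjamini-Hochberg adjustment over the 18 tests of this family. In sEVs the shares were 2.91% ± 0.121 for neurons, 2.85% ± 0.141 for astrocytes and 2.40% ± 0.394 for microglia, and the groups overlapped (exact permutation p = 0.1, adjusted 0.15).

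**Figure D2:**
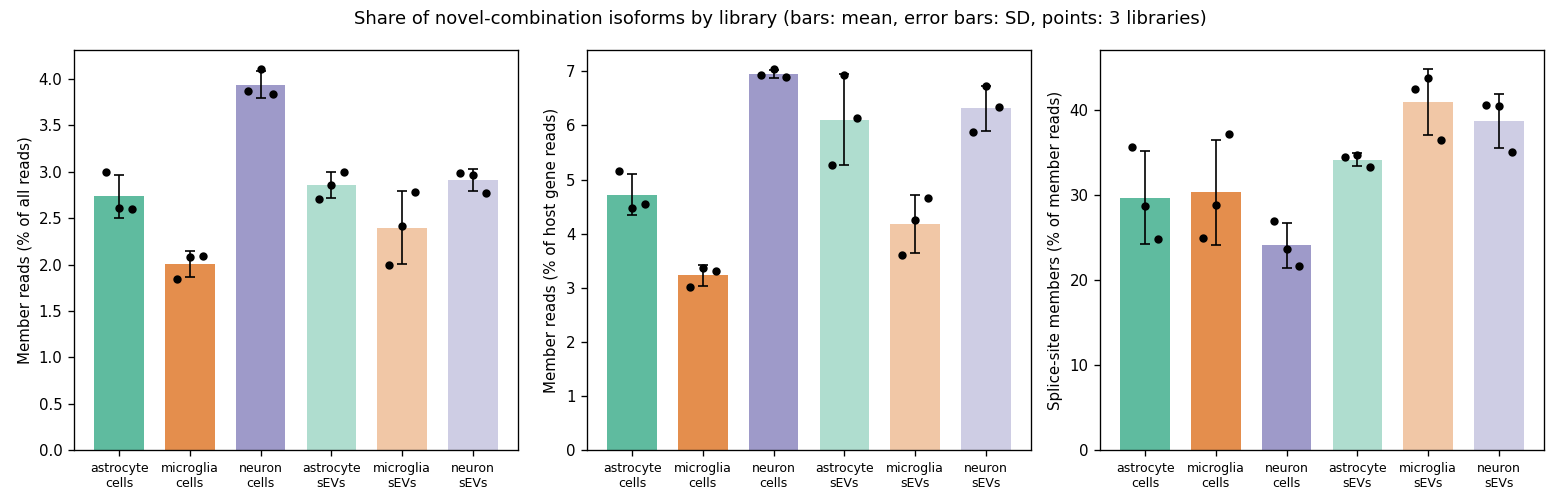
Member reads as a percentage of all reads (left), of the reads of their host genes (middle), and splice-site members as a percentage of member reads (right), by group on the x axis; bars are means, error bars SDs and points the 3 libraries. Neuron cells stand highest at 3.94% of all reads and 6.95% of host gene reads, and all 3 sEV groups have higher mean splice-site percentages than their cells.

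Between sEVs and cells the overall share was not called different. The difference was +0.117 percentage points in astrocytes (p = 0.6), +0.390 in microglia (p = 0.3) and -1.03 in neurons (p = 0.1), each by an exact two-sided permutation test of 3 against 3 libraries, whose smallest p is 0.1. All 3 neuron sEV libraries (2.77 to 2.99%) lay below all 3 neuron cell libraries (3.84 to 4.10%). Over the 3 cell types together the difference was -0.174 points (exact permutation p = 0.374, adjusted 0.420). This last direction depends on the total used as denominator: without the Ftl1 reads in the total, the difference was +0.372 points (exact permutation p = 0.07025, adjusted 0.1 over 6 tests).

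The split of member reads between the 2 kinds differed between cells and sEVs. Splice-site members made up 24.1% ± 2.69 (SD, n = 3) of the member reads in neuron cells, 29.7% ± 5.47 in astrocyte cells and 30.3% ± 6.19 in microglia cells. In sEVs they made up 38.6% ± 3.16 in neurons, 34.1% ± 0.794 in astrocytes and 40.9% ± 3.87 in microglia. Over the 3 cell types the mean was 37.9% in sEVs and 28.0% in cells (exact permutation p = 0.002, adjusted 0.012 over 6 tests). As a share of all reads, splice-site members were 0.231 percentage points higher in sEVs (exact permutation p = 0.00525, adjusted 0.0315). Junction members were 0.405 points lower in the mean (exact permutation p = 0.0495, adjusted 0.099). By cell type their difference was -1.21 points in neurons, -0.0363 in astrocytes and +0.0308 in microglia. The total of all reads includes the Ftl1 reads, and the shares of the 2 kinds were not tested without them. These tests by subcategory were chosen after the data were seen, and no single cell type can pass the threshold with 3 libraries against 3. In neurons the groups did not overlap in the splice-site percentage of member reads, and in astrocytes and microglia they did.

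Members were also set against the intron-retaining isoforms of the same category, whose share of reads fell by 0.644 percentage points between cells and sEVs over the 3 cell types (exact permutation p = 0.0005, adjusted 0.003). The ratio of member reads to intron-retaining reads was 1.81 ± 0.125 (SD, n = 3) in astrocyte cells and 4.36 ± 1.15 in astrocyte sEVs. It was 1.64 ± 0.102 in microglia cells and 4.89 ± 0.764 in microglia sEVs. In neurons it was 2.44 ± 0.552 in cells and 2.24 ± 0.0720 in sEVs, where the libraries overlapped. Over the 3 cell types the mean ratio was 3.83 in sEVs and 1.96 in cells (exact permutation p = 0.00325, adjusted 0.0195), a test also chosen after the data were seen.

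Within their own genes, members took more reads in neuron cells than in other cells. As a percentage of the reads of all host genes, they held 6.95% ± 0.0724 (SD, n = 3) in neuron cells, 4.72% ± 0.381 in astrocyte cells and 3.23% ± 0.195 in microglia cells (exact permutation p = 0.00357, adjusted 0.0214). In sEVs these were 6.31% ± 0.422, 6.11% ± 0.836 and 4.18% ± 0.535. The difference between sEVs and cells was +1.39 points in astrocytes, +0.944 in microglia and -0.638 in neurons, with no overlap between the libraries in any cell type (exact permutation p = 0.1 in each, the smallest possible). The change in neurons differed from that in astrocytes by -2.02 points and from that in microglia by -1.58 points (exact permutation p = 0.005 each, the smallest possible, adjusted 0.0188 over 15 tests). When each host gene with 20 or more reads in a library counted equally, a choice made after the data were seen, the neuron difference was +1.82 points, the opposite direction, and it differed from that in astrocytes by -0.10 points and from that in microglia by +0.25 points (exact permutation p = 0.955 and 0.845, adjusted 0.955 over 3 tests). Among the reads of full-splice matches and members alone it was +0.587 points. The cause of the reversal was not tested. The median host gene had 0% in every library.

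In 193 genes with 100 or more reads (2.55%) a member was the best-read isoform of the gene, and 24 of these genes had no full-splice match reads. Septin7 18156, a splice-site member of the gene of a filament-forming GTPase, had the most reads of all members, 4981. It had reads in all 18 libraries and made up 78.7% of the Septin7 reads, and Septin7 had no full-splice match. Its counts were 638, 766 and 585 in astrocyte cells, 132, 142 and 297 in microglia cells and 260, 305 and 295 in neuron cells. In sEVs they were 252, 136 and 293 for astrocytes, 147, 198 and 346 for microglia and 65, 46 and 78 for neurons. Astrocyte cells were highest and neuron sEVs lowest, with no overlap between these groups.

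Mpc1 7364, from a subunit gene of the mitochondrial pyruvate carrier, held 3716 of 3811 Mpc1 reads (97.5%), against 66 for the best full-splice match. It ran from 252 CPM ± 42.4 (SD, n = 3) in microglia cells to 570 CPM ± 16.6 in neuron sEVs. Uchl3 5411, from a ubiquitin hydrolase gene, also had reads in all 18 libraries and made up 86.3% of its gene. Sec23b 10425, from a COPII coat gene, made up 76.6% of its gene and had reads in 17 libraries, with 1008 reads against 162 of the best full-splice match. Nfix 17527, from a transcription factor gene, had 888 reads against 188. Ttc3 7306, from a ubiquitin ligase gene, had 899 reads against 61.

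Other well-read members stood mainly in 1 or 2 of the cell types. Syt5 35711, from the gene of the vesicle calcium sensor synaptotagmin 5, had 397, 567 and 332 reads in neuron cells, 20, 9 and 19 in neuron sEVs, 4 in one astrocyte cell library and 0 elsewhere, and made up 82.6% of the gene. Klc1 4385, from a kinesin light chain gene, had 163, 164 and 119 reads in neuron cells and 199, 90 and 168 in neuron sEVs, with 8 reads in astrocyte cells, 4 in astrocyte sEVs and 0 in microglia. Aplp2 18196, from a gene of the amyloid precursor family, had 386, 326 and 469 reads in neuron cells, 198, 190 and 328 in astrocyte cells, 27, 4 and 16 in microglia cells and 21 reads in 1 of the 9 sEV libraries. Aplp2 as a whole was also scarce in sEVs, with 23, 175 and 44 reads in the astrocyte, microglia and neuron sEVs. Ntrk2 4781, from the gene of the BDNF receptor TrkB, had 589, 462 and 924 reads in astrocyte cells, 99, 76 and 71 in neuron cells and 0 in microglia cells. Gbp3 12107, from an interferon-induced guanylate-binding protein gene, had 209, 363 and 623 reads in microglia sEVs but 12, 540 and 24 in microglia cells.

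**Figure D3:**
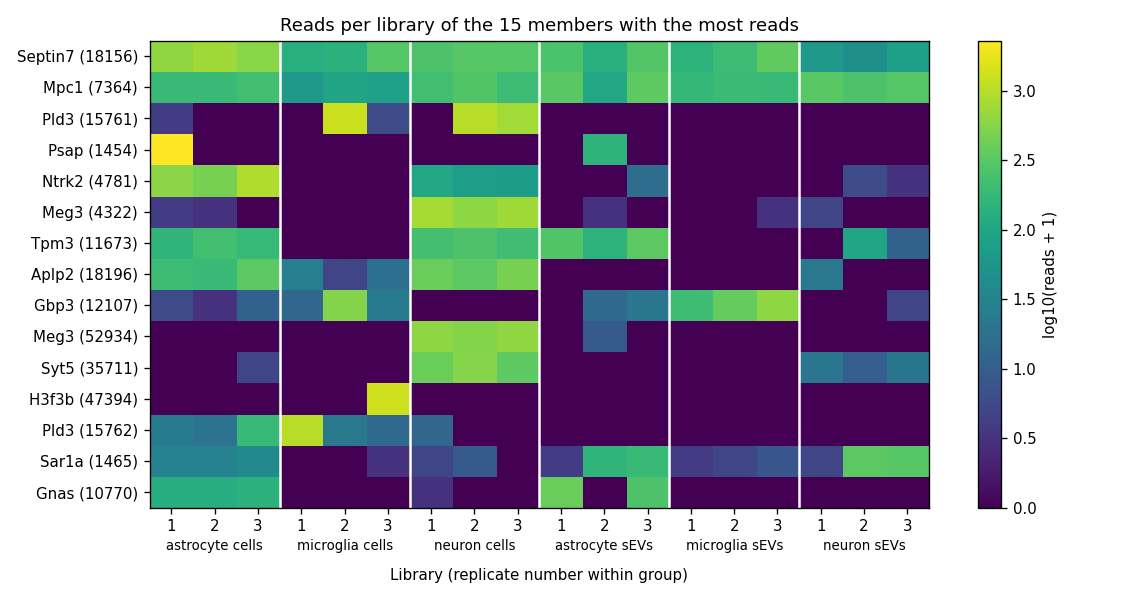
Reads of the 15 members with the most reads (rows, isoform number in brackets) in the 18 libraries (columns, grouped), as log10 of reads plus 1. Septin7 and Mpc1 are filled in every library, Meg3 and Syt5 mainly in neuron cells, and H3f3b, with 1299 reads, in a single microglia cell library.

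Some members of Pld3, a lysosomal exonuclease gene, were well read in some replicates and scarce in others of the same group. Pld3 15761 had 1225 reads in replicate 2 of the microglia cells against 0 and 5 in the others, and 0, 1009 and 780 in neuron cells. Pld3 15762 had 987 reads in replicate 1 of the microglia cells against 21 and 13. Pld3 15760 had 725 of its 729 reads in replicate 1 of the neuron cells, 79.7% of the gene's reads there. No group total of these members is used in a comparison. Pld3 15761 and Pld3 15762 held 3022 and 1256 of the 7831 Pld3 reads.

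In genes with very many members, most members were seen in 1 library, as were 61 of 82 in Lilrb4b and 49 of 74 in Zbtb20. Lilrb4b, a receptor gene of myeloid cells, had 82 members, with 626 of 3331 reads in microglia cells (18.8%) and 1459 of 3030 in microglia sEVs (48.2%). Zbtb20, a transcription factor gene, had 74 members that held 72.4% of its reads, 1251 of 1584 in astrocyte sEVs. Ttc3 had 54 and the interferon-induced antiviral gene Mx1 had 45, the latter in microglia cells and sEVs only.

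Single members were tested with edgeR's quasi-likelihood test in 1 fit of all isoforms, with Benjamini-Hochberg adjustment over 9370 isoforms and a threshold of 0.05. Where cell types were averaged, the tested mean was on the log scale, and the CPM means given beside it are arithmetic. So 0 reads in 1 cell type can enlarge a log2 difference. The filter on low counts left 587 members (3.78% of members, 46.5% of member reads). Leaving out any 1 library also loosened this filter, so that 903 to 956 members were tested. For calls lost that way, the parts of the filter and of the library cannot be told apart here. A member that passed the filter through 1 high group had to differ between groups, so the counts of calls describe these members and support nothing about all members.

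Among cells, 112 tested members were higher in neurons than in the mean of the other 2 cell types, against 15% of all isoforms tested, and 5 were lower, against 4.27%. Meg3 4322 had 806, 618 and 762 reads in neuron cells, 3, 2 and 0 in astrocyte cells and 0 in microglia cells, 1483 CPM ± 287 (SD, n = 3) in neurons (log2 difference 10.75, SE 0.98, adjusted p = 3.26e-05). Syt5 35711 stood at 863 CPM ± 178 in neuron cells against a mean of 1.14 CPM (adjusted p = 0.000110). Mef2c 53222, from a transcription factor gene, stood at 256 CPM ± 106 and was at least 34.9-fold higher than in the other cells, where it had 0 reads (adjusted p = 0.000271). Mapt 3301, a splice-site member of the tau gene, stood at 88.2 CPM ± 13.2 against 4.41 CPM (adjusted p = 0.000279). Tpd52 56200 had 29, 66 and 41 reads in neuron cells and 0 in the other cells (at least 12.3-fold, adjusted p = 0.000604).

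In microglia cells, 125 tested members were higher, against 18.3% of all isoforms, and 90 lower, against 17.1%. Without TMM scaling the split was 120 higher and 131 lower, and with DESeq2 65 and 82. Lilrb4b 37958 had 95, 101 and 125 reads in microglia cells and 0 in the other cells (at least 60.8-fold, log2 difference 10.43, SE 0.41, adjusted p = 3.30e-06). Capg 41239, from an actin filament capping protein gene, had 69, 108 and 118 reads and 0 elsewhere among cells (at least 55.4-fold, adjusted p = 1.78e-05). Tpm3 40433, from a tropomyosin gene, had 39, 49 and 77 reads and 0 elsewhere (at least 30.5-fold). Zup1 20473 and Rbms1 40109 stood at 290 and 255 CPM, with 2 and 3 reads in all other cell libraries. Lower in microglia cells were Fyn 1323, from a Src-family kinase gene, Smarce1 3179, a chromatin remodelling subunit, and Elmo1 4511, all with 0 reads there, and Uchl3 5411, at 17.3 CPM ± 5.40 against 107 CPM in the others.

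In astrocyte cells, 31 tested members were higher, against 5.77% of all isoforms, and 3 were lower, against 2.13%. With DESeq2 the split was 33 higher and 27 lower, and in neuron cells 67 and 24. Fyn 1323 had 153, 170 and 116 reads in astrocyte cells, 57, 29 and 60 in neuron cells and 0 in microglia cells (adjusted p = 0.000659). Ntrk2 4781 stood at 1110 CPM ± 430 against a mean of 83.1 CPM (log2 difference 7.44, SE 1.13, adjusted p = 0.00251). The 83.1 CPM is the arithmetic mean of 166 CPM in neuron cells and 0 reads in microglia cells. The log2 difference was taken from their log-scale mean, which the 0 reads lower. Ntm 18186, from a neural adhesion molecule gene, had 112, 118 and 248 reads in astrocyte cells and 2 in all other cell libraries. Leaving out a single library of these cells let 914 to 956 members pass the filter instead of 587. It gave between 6 and 13 members called in astrocyte cells in either direction, against 34 with all libraries. The 6 came without replicate 3 of the astrocyte cells. In neuron cells the same range was 48 to 79 against 117, the lowest without replicate 1 of the neuron cells, and in microglia cells 142 to 202 against 215, the lowest without replicate 2 of the microglia cells.

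**Figure D4:**
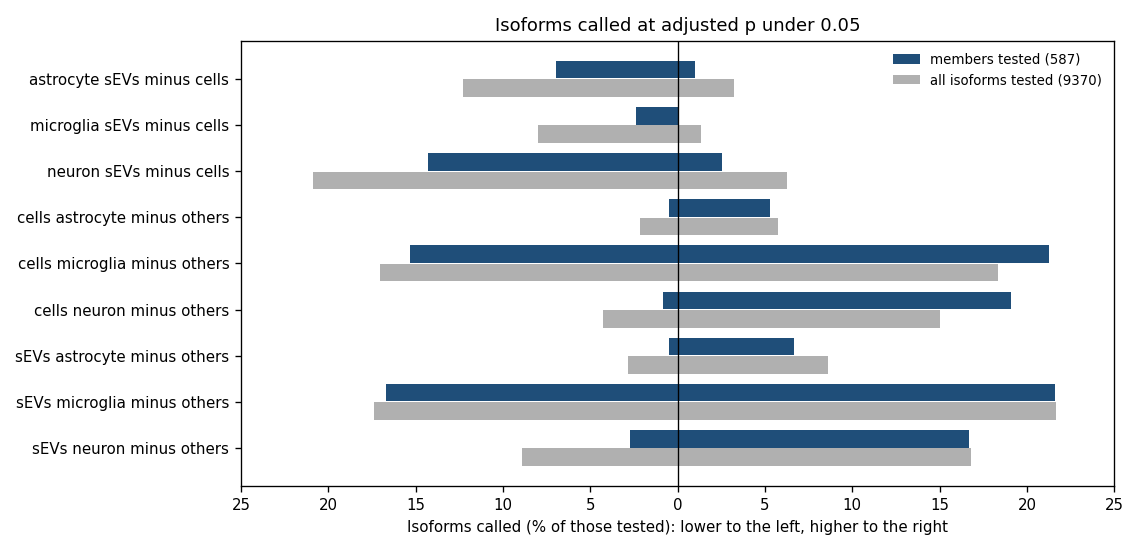
Percentage of tested isoforms called at an adjusted p under 0.05 (x axis, lower to the left and higher to the right) in 9 comparisons, for the 587 members tested and for all 9370 isoforms tested. In the 3 comparisons of sEVs with cells the bars of the members are shorter than those of all isoforms in both directions. Members and all isoforms were not matched for read number.

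Between neuron sEVs and neuron cells, 84 tested members were lower in sEVs, against 20.9% of all isoforms, and 15 were higher, against 6.26%. With DESeq2 the split was 55 lower and 35 higher, and in a fit of these 2 groups alone it was 73 and 37 of 220 members tested. Septin7 18156 fell from 579 CPM ± 46.9 to 121 CPM ± 23 (SD, n = 3 each; log2 difference -2.26, SE 0.30, adjusted p = 0.000140). Meg3 4322 fell from 1483 CPM to 2.34 CPM (log2 difference -9.07, SE 1.15, adjusted p = 0.000157). All 13 tested Meg3 members were lower in neuron sEVs, and Meg3 as a whole went from 5142, 3424 and 4256 reads in neuron cells to 16, 0 and 2 in neuron sEVs. Fyn 1323 and Dnm1l 6805, from the gene of a mitochondrial fission GTPase, had reads in all 3 neuron cell libraries and 0 in neuron sEVs (at least 17.2-fold and 9.63-fold lower).

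Higher in neuron sEVs were Tpm3 40433, with 44, 13 and 35 reads in sEVs and 0 in neuron cells (at least 9.42-fold, adjusted p = 0.000183), and Farsb 341, from a phenylalanyl-tRNA synthetase gene, at 123 CPM ± 58.6 against 14.8 CPM ± 10.7 (adjusted p = 0.0139). Tpm3 40433 also stood in microglia cells. Of the 12 microglia markers 11 were at 0 in neuron sEVs, with a summed level of 0 to 5.99 counts per 1000000 reads, and their part in the result was not tested. Mtfr1l 13027 stood at 81.8 CPM ± 45.8 against 9.92 CPM ± 4.90. Hmgn1 7331, a nucleosome-binding protein gene, had 12, 16 and 100 reads in sEVs and 0 in neuron cells. Ybx1 34565, from the gene of an RNA-binding protein, had 53, 66 and 865 reads in sEVs and 0, 6 and 0 in cells, and 1 library decided its mean of 620 CPM ± 867. Ybx1 34565 was not called without replicate 3 of the neuron sEVs, or without replicate 1 or 3 of the neuron cells (adjusted p up to 0.0801). Farsb 341 was not called without replicate 2 or 3 of the neuron cells or replicate 1 of the neuron sEVs (up to 0.103), and Mtfr1l 13027 without any 1 neuron cell library or replicate 1 of the neuron sEVs (up to 0.120). Mapt 3301 stood at 259 CPM ± 52.1 in neuron sEVs and 88.2 CPM ± 13.2 in neuron cells with no overlap, but did not pass the adjusted threshold (adjusted p = 0.0518). Leaving out a single library gave 38 to 47 members called instead of 99, with the lowest without replicate 1 of the neuron cells. In those fits 903 to 939 members passed the filter instead of 587.

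Between astrocyte sEVs and astrocyte cells, 41 tested members were lower in sEVs, against 12.3% of all isoforms, and 6 higher, against 3.22%. With DESeq2 the split was 39 lower and 17 higher, and in a fit of these 2 groups alone it was 30 and 11 of 201 members tested. Septin7 18156 fell from 1107 CPM ± 117 to 358 CPM ± 62.3 (log2 difference -1.63, SE 0.30, adjusted p = 0.00221). Ntrk2 4781 fell from 1110 CPM ± 430 to 7.25 CPM ± 12.6 (adjusted p = 0.00348), and Aplp2 18196 from 402 CPM ± 140 to 0 reads (at least 79.6-fold, adjusted p = 0.00318). Mia3 1087, from an endoplasmic reticulum exit site gene, and Pcyox1 15026 also had 0 reads in astrocyte sEVs (at least 12.6-fold and 13.1-fold lower). Son 76409, from a nuclear speckle protein gene, had 54, 47 and 35 reads in astrocyte sEVs and 0 in all cell libraries (at least 15.2-fold higher, adjusted p = 0.00788), and 10, 18 and 4 reads in neuron sEVs. Cct2 1922, a chaperonin subunit, rose from 28.0 CPM ± 8.83 to 143 CPM ± 69.0 (adjusted p = 0.0320), and Atp6v0b 12756, a proton pump subunit, from 14.6 CPM ± 8.02 to 61.7 CPM ± 23.1 (adjusted p = 0.0328). Leaving out a single library gave 11 to 27 members called instead of 47, with 908 to 931 members tested instead of 587. The lowest came without replicate 3 of the astrocyte cells. The call of Cct2 ended in every case but replicate 3 of the astrocyte sEVs. That of Atp6v0b ended without replicate 2 or 3 of either group (adjusted p up to 0.162 for Cct2 and 0.243 for Atp6v0b over all settings).

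Between microglia sEVs and microglia cells, 14 tested members were lower in sEVs, against 8% of all isoforms, and 0 were higher by edgeR, against 1.36%. At an unadjusted p under 0.05 edgeR gave 7 higher, and after adjustment DESeq2 gave 2 higher and edgeR without TMM scaling gave 3. A fit of these 2 groups alone gave 6 higher and 10 lower of 157 members tested. The 5 named ones all had 0 reads in microglia sEVs: Anxa4 41257 with 22, 19 and 35 reads in microglia cells, Unc93b1 39757 with 17, 22 and 45, Csrnp1 42168 with 29, 18 and 22, Tmem229b 38685 with 10, 23 and 37, and Atp2b1 20722 with 23, 29 and 51. Unc93b1 carries endosomal Toll-like receptors, and Anxa4 is a calcium-dependent membrane-binding annexin. None of these 5 calls held with any single library of the 2 groups left out, when 912 to 956 members were tested and 0 to 6 called in all. They were also lost with all libraries kept and no filter beyond 10 reads, and all but Atp2b1 20722 were lost with DESeq2 and with the replicate block.

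For the mean over the 3 cell types, 62 tested members were lower in sEVs, against 21% of all isoforms, and 18 higher, against 6.92%. Without TMM scaling the split was 53 lower and 26 higher. A member with no read in either fraction of a cell type has no finite estimate in this mean and cannot be called. Mia3 1087 was lower, at 87.9 CPM in cells and 1.13 CPM in sEVs over 9 libraries each (log2 difference -7.13, SE 0.85, adjusted p = 9.55e-05). Xpnpep1 9545, from an aminopeptidase gene, was at 57.5 and 14.3 CPM (adjusted p = 0.0369). Its call was lost in 20 of 24 other settings, among them leaving out any 1 cell library (adjusted p up to 0.157).

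Among sEVs, 98 tested members were higher in neuron sEVs than in the mean of the other sEVs, against 16.8% of all isoforms, and 16 were lower, against 8.9%. Mapt 3301 had 136, 144 and 117 reads in neuron sEVs and 0 in the other 6 sEV libraries (at least 46.8-fold, adjusted p = 1.17e-05). Selenow 15606, from a selenoprotein gene, stood at 195 CPM ± 44.9 against 6.44 CPM, and Klc1 4385 at 288 CPM ± 79.1 against 1.48 CPM. Astrocyte sEVs had 39 higher members, against 8.61% of all isoforms, and 3 were lower, against 2.83%. Leaving out a single library gave 27 to 43 called instead of 42, the lowest without replicate 3 of the astrocyte sEVs. The higher ones included Fyn 1323 with 141, 62 and 50 reads and 0 in the other sEVs, Nadk2 5889, from a mitochondrial NAD kinase gene, with 80, 46 and 32 reads and 0 in the other sEVs, and Tpm1 18611 at 81.2 CPM ± 14.5 against 11.5 CPM. Microglia sEVs had 127 higher members, against 21.7%, and 98 lower ones, against 17.4%. Lilrb4b 37958 had 209, 234 and 261 reads there and Slc31a2 12494, from a copper transporter gene, had 26, 26 and 25, each with 0 in the other sEVs. With DESeq2 the splits of higher and lower members were 92 and 36 in neuron, 44 and 35 in astrocyte and 76 and 117 in microglia sEVs.

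Differences in level can follow the gene, so usage was tested within genes with edgeR's diffSpliceDGE on 4433 isoforms, 544 of them members. With a library left out, 846 to 899 members were tested. Between neuron cells and the log-scale mean of the other cells 22 members were called, against 2.50% of all isoforms tested. Of these, 21 had higher usage in neurons than in that mean. In microglia cells 18 were called, against 2.44%, and in astrocyte cells 1, against 0.226%. The astrocyte call was Tpm3 11673 (log2 6.27), also called higher in neuron cells (log2 6.31). It made up a mean of 88.5% of the gene's reads in astrocyte cells, 86.0% in neuron cells and 0 in microglia cells. Between sEVs and cells 6 were called in neurons, against 1.13%, and 2 in astrocytes, against 0.857%. In microglia 0 were called by edgeR, against 1.33%, with 12 higher and 23 lower at an unadjusted p under 0.05. Leaving out a single library gave 6 to 10 members called in neuron cells (the lowest without replicate 2 of the neuron cells), 4 to 12 in microglia cells (the lowest without replicate 3 of the microglia cells) and 0 to 4 between neuron sEVs and cells (the lowest without replicate 1 of the neuron cells).

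Cadm1 59472, from a synaptic adhesion molecule gene, had 747 of 2117 Cadm1 reads in neuron cells and none of 1197 in astrocyte or 1673 in microglia cells (log2 usage difference 10.68, adjusted p = 8.18e-08). Tpd52 56200 had 136 of 231 reads in neuron cells and 0 of 411 and 843 in the others (adjusted p = 9.45e-08). In sEVs Tpd52 56200 again had 123 of 277 reads for neurons and 0 of 711 and 2245 for astrocytes and microglia. Cct5 5944, a chaperonin subunit, had 12.3% of the gene's reads in neuron cells, 1.88% in astrocyte cells and 0 of 541 reads in microglia cells (adjusted p = 0.000473, 0.0562 without replicate 2 of the neuron cells). Bin1 54905, from an endocytic amphiphysin family gene, had 61 of 112 reads in neuron cells and none of the 179 and 102 in astrocyte and microglia cells (adjusted p = 0.00156), a call lost without any 1 microglia cell library, replicate 1 or 3 of the astrocyte cells or replicate 1 or 2 of the neuron cells (adjusted p up to 0.0736). In microglia cells Rcbtb2 39042 had 74 of 116 reads and none of the 55 and 41 reads of the other cells (adjusted p = 0.000346).

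A pair of Tpm3 members divided the cell types between them. Tropomyosins lie along actin filaments, and their genes use alternative exons in different tissues. Tpm3 11673 made up 84.7 to 90.9% of the Tpm3 reads in the 3 astrocyte cell libraries and 83.3, 93.3 and 81.4% in neuron cells, and had 0 of 421, 458 and 777 reads in microglia cells (usage against the other cells, log2 -12.59 in microglia, adjusted p = 2.44e-06). Tpm3 40433 made up 9.26, 10.7 and 9.91% in microglia cells and 0 in both others (log2 7.45, adjusted p = 0.000346). Astrocyte sEVs had 69.2 to 87.3% of Tpm3 11673 and 0 reads of Tpm3 40433. Neuron sEVs had 0, 56.7 and 5.41% of Tpm3 11673 and 22.6, 7.93 and 18.9% of Tpm3 40433. In neuron sEVs against neuron cells the usage of Tpm3 40433 rose (log2 8.63, adjusted p = 0.0111), a call that ended without any one of the neuron cell libraries, with adjusted p up to 0.128.

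**Figure D5:**
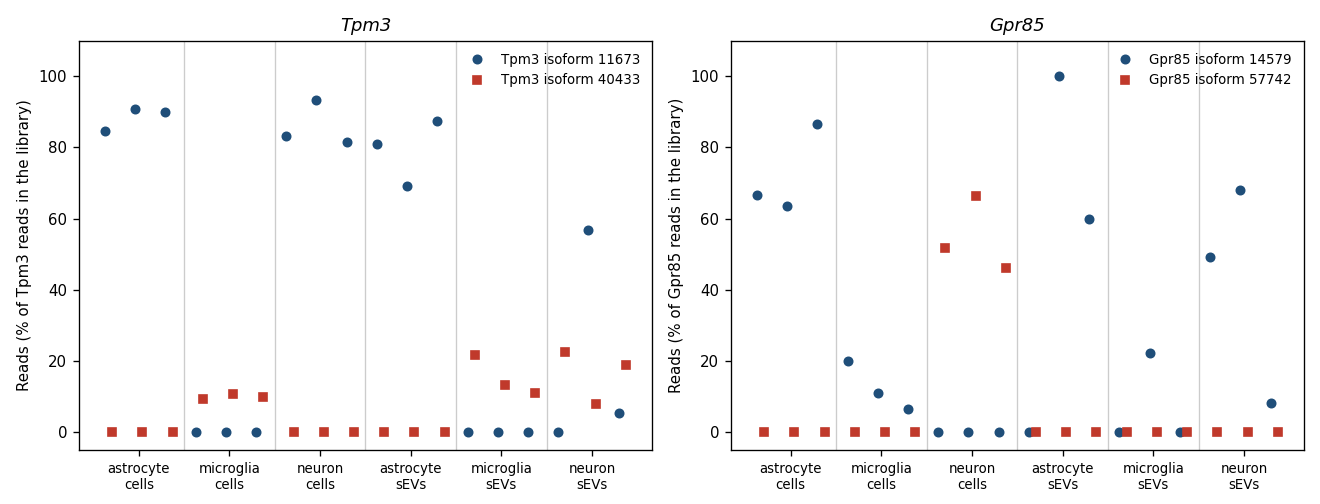
Reads of 2 members each of Tpm3 (left) and Gpr85 (right) as a percentage of all reads of the gene in a library (y axis), for the 18 libraries by group (x axis); each point is a library. Tpm3 11673 stands at 81.4 to 93.3% in astrocyte and neuron cells and at 0 in microglia, and Gpr85 57742 has reads in neuron cells only.

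Gpr85, an orphan receptor gene of the brain, had a pair of splice-site members that differed between fractions. Gpr85 57742 had 93, 120 and 58 reads in neuron cells, 46.0 to 66.3% of the gene's reads, and 0 in all other libraries, neuron sEVs included. Gpr85 14579 had 0 reads in neuron cells and 31, 17 and 4 in neuron sEVs, which was 49.2, 68.0 and 8.33% of the gene's 63, 25 and 48 reads. Usage in neuron sEVs against cells was lower for Gpr85 57742 (log2 -7.28, adjusted p = 0.0140) and higher for Gpr85 14579 (log2 9.33, adjusted p = 0.0123). The first call was lost without any 1 library of the 2 groups (adjusted p up to 0.160), and the second without any 1 neuron cell library or replicate 2 of the neuron sEVs (up to 0.206). Gpr85 14579 also held 63.6 to 86.7% of the few Gpr85 reads in astrocyte cells, 15 to 22 per library, and astrocyte markers in neuron sEVs summed to 3394 to 4453 counts per 1000000 reads, against 3281 to 3715 in neuron cells. Their part was not tested.

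Sar1a 1465, from the gene of the GTPase that starts COPII coats, had 0 to 3.14% of the gene's reads in neuron cells and 0.842, 66.7 and 63.0% in neuron sEVs (log2 4.88, adjusted p = 0.0119). The call was lost without any 1 neuron cell library or replicate 2 or 3 of the neuron sEVs (adjusted p up to 0.412). Astrocyte sEVs had the same order, with 0.806, 44.2 and 46.2%, against 13.5 to 13.8% in astrocyte cells. In both cell types the low sEV library is replicate 1, the library with 6.76 or 8.94% of its reads from Gm42047. Ntm 18186 had 32 of 131 Ntm reads in neuron sEVs and 2 of 1912 in neuron cells (adjusted p = 0.00502), a call lost without any 1 of the neuron cell libraries (adjusted p up to 0.0787). In astrocyte sEVs the usage calls were Atp6v0b 12756, at 110 of 546 reads against 26 of 1359 in cells (adjusted p = 0.0450, lost without any 1 library of the 2 groups, up to 0.643), and Meg3 52934, which rests on 8 reads in replicate 2 of the astrocyte sEVs and was not called without it.

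Gene lists were read for their members, with the lists chosen when earlier results of these data were known. Of 64 alternatively spliced brain genes with reads, 53 had members, 396 in all, with 11.7% of the list's reads. Of the 38 tested, 23 were higher in neuron cells than in the other cells and 0 lower, and 20 were lower and 1 higher in neuron sEVs than in neuron cells, where 15% of all isoforms were higher in neuron cells and 20.9% lower in neuron sEVs. Members with reads mainly in neuron cells passed the filter on low values through that group, so these counts and the medians below are a description from which nothing is read. With groups at 0 set to the floor of 3 reads per library, the median log2 difference was 1.89 and -2.85 in these comparisons, over 37 and 34 members, against -0.03 and -0.77 over all isoforms above the floor. Of these, 13 members are Meg3's, which is also the source of all 13 tested members of the long non-coding and snoRNA host genes. In that list 12 of 33 genes had members, 85 in all, with 9.42% of its reads.

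The best-read members of the brain gene list outside Meg3 were Tpm3 11673 and Gnas 10770. Gnas encodes the stimulatory G protein alpha subunit, and its member had 125, 124 and 143 reads in astrocyte cells, 386, 0 and 267 in astrocyte sEVs, 2 in one neuron cell library and 0 elsewhere. Splicing factors of the SR and hnRNP families had members in 26 of 44 genes, 119 in all, with 3.83% of the reads. Of these, 7 were tested, and fewer stood above the floor in each comparison of sEVs with cells. With groups at 0 set to the floor, the median log2 difference in astrocytes was -0.11 over 6 members. Over all isoforms above the floor it was -0.34. In microglia the medians were -0.25 for the members and -0.41 for all isoforms. In neurons they were -1.03 and -0.77, with 4 members above the floor in each of these cell types. Hnrnpc 5813 led with 358 reads in 15 libraries, 27, 79 and 35 of them in astrocyte cells and 53, 17 and 79 in astrocyte sEVs. Srsf7 23717 had 121 reads in 11 libraries and Hnrnpa2b1 26891 had 120 in 10.

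Actin cytoskeleton genes had members in 23 of 38 genes, 75 in all, with 2.45% of the reads, and 8 were tested. Tpm1 18611 had 50, 35 and 67 reads in astrocyte sEVs, 15, 10 and 11 in neuron sEVs and 0 in microglia sEVs. Capza1 11870, from a capping protein gene, had 200 reads in 16 libraries, 65 of them in replicate 1 of the astrocyte sEVs. Cytosolic ribosomal protein genes were the poorest list: 26 of 84 had members, 40 in all, with 1440 of 298175 reads (0.483%). Rpl3 6298 had 374 of its 414 reads in replicate 1 of the neuron sEVs, Rpl14 105083 had 104 of 106 in replicate 3, and Rpl5 13950 had 129, 19 and 179 reads in the 3 neuron sEV libraries.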

How the data were processed

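The authors deposited 1 table of raw read counts for 18 libraries, 1 row per isoform with its gene symbol, category and subcategory. The submitters' processing notes name minimap2 and GRCm39. Which tool built the isoforms, and from which annotation, is not given in the sources used here. Coordinates and sequences of isoforms were not used here. Levels were compared in R 4.3.3 with edgeR 4.0.16 (filterByExpr by group, TMM, quasi-likelihood, a mean per group, all libraries in 1 fit) and usage with diffSpliceDGE. DESeq2 1.42.0, other filters and scalings, left-out libraries and a replicate block were alternatives. Shares were tested by exact permutation of libraries with scipy 1.17.1. The procedures were tested on simulated data. Over all isoforms tested, same-numbered libraries of cells and sEVs, or of different cell types, deviated together only weakly, so numbers were not taken as pairs. The members and lists were chosen with earlier results of these data known. Named were the 15 members with the most reads, the 5 genes with the most members, up to 5 members per direction and comparison and up to 5 per usage comparison by smallest adjusted p (levels also without overlap and with a mean count of 20 or more), 10 leading members, 4 examples per list and 10 members of 1 group. Predicted, unannotated and read-through labels were passed over. Some items that these rules name are not reported here. Members concentrated in 1 library were described after their values were seen.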

Additional observations from a re-analysis of the deposited data

Results flagged for a closer look

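With reads summed over genes, the change between sEVs and cells in the member share differed between neurons and the other cell types. As a percentage of host gene reads, it was -0.638 points in neurons, 1.39 in astrocytes and 0.944 in microglia, so the neuron change differed by -2.02 and -1.58 points (exact permutation p = 0.005 each, adjusted 0.0188 over 15 tests). With each host gene of 20 or more reads counted equally, a choice made after the data were seen, the neuron change was +1.82 points and differed by -0.10 and +0.25 points (exact permutation p = 0.955 and 0.845), neither past the threshold. As a percentage of all reads, neurons and microglia differed by -1.42 points (exact permutation p = 0.015, adjusted 0.045), and without Ftl1 reads in the total neurons differed from astrocytes by -1.35 and from microglia by -0.842 points (exact permutation p = 0.005 each, adjusted 0.0188). All 3 neuron sEV libraries lay below all 3 neuron cell libraries in the percentages of host gene reads, of all reads and of reads without Ftl1. Another measure with summed reads went the other way. Among the full-splice match and member reads of host genes, the neuron change was positive. With groups of 3 libraries, single libraries were not tested as outliers.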

How the results depend on the processing

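Of 89 results for single named members, 64 were called in every setting tried, 25 were lost in at least one (all 25 with a library left out, 11 with the replicate block, 4 with DESeq2) and 0 changed direction. Differences below are sEVs minus cells, and the causes were not tested. The member percentage of reads in astrocytes became -0.289 for members in 2 or more libraries, -0.0363 for junction members and -0.0501 without mitochondrially encoded reads. For splice-site members it became 0.180 in neurons and 0.231 in the mean, and the range among cells was 0.334. Among full-splice match and member reads the mean became 0.0660 and the range among sEVs 0.918. The mean became 0.372 without Ftl1 and 0.476 without Ftl1 and Gm42047, both chosen after seeing the data. Counting members with 5 or more reads, the number detected rose by 177 in astrocytes, 341 in microglia and 145 in the mean. The host gene percentage among full-splice match and member reads became 0.587 in neurons and 1.43 in the mean. As a mean over host genes, chosen after seeing the data, it became 1.82 in neurons and 1.77 in the mean, with a range among sEVs of 2.85, and as a median the range among cells was 0.

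With the replicate block, the ranges among cells stayed at 1.93% of reads, 975 members and 3.72% of host gene reads. Their exact permutation p was 0.0278 (adjusted 0.103), the smallest that the blocked test can give, so it could not pass the adjusted threshold. The mean difference of -410 members passed (adjusted 0.0352). Same-numbered libraries correlated from -0.039 to 0.060 between cells and sEVs of a cell type and from -0.031 to 0.039 between cell types. Between astrocyte and neuron sEVs the same-numbered pairs stood at 0.0126, 0.039 and 0.0329. The other pairs of these groups ran from -0.0318 to 0.0036. Gm42047 was also highest in replicate 1 of both. A batch shared by replicate number in these sEVs was not tested. The block gave 19, 2 and 58 members called between sEVs and cells of astrocytes, microglia and neurons, 14 and 69 in astrocyte and neuron cells, 25 in astrocyte sEVs, and 1 and 2 by usage in astrocyte sEVs and cells. With no filter beyond 10 reads the same counts were 12, 3, 34, 16, 65, 18, 1 and 3, and by usage 9 in microglia cells, 9 in neuron cells and 3 in neuron sEVs. DESeq2 gave 22 in microglia sEVs against cells, 60 in astrocyte cells and 79 in astrocyte sEVs. Library sizes without TMM gave 61 in astrocyte cells. Without libraries in which 1 gene held over 5% of reads, counts were 86, 178 and 26 in astrocyte cells, neuron cells and microglia sEVs against cells, and the other contrasts of sEVs with cells could not be made. Without the 2 libraries rich in Gm42047, a choice made after seeing the data, they were 20 and 63 for astrocyte and neuron sEVs against cells, and by usage 1, 1 and 5 for astrocyte sEVs, microglia sEVs and astrocyte cells.

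Leaving out 1 library at a time gave these lowest and highest values. For the member percentage of reads the differences were 0.0474 to 0.250 in astrocytes, 0.199 to 0.592 in microglia, -1.08 to -0.947 in neurons and -0.237 to -0.106 in the mean, and the ranges 1.85 to 1.98 among cells and 0.310 to 0.703 among sEVs. For the number of members detected the differences were -789 to -290 in astrocytes, -329 to 57.8 in microglia, -626 to -472 in neurons and -499 to -333 in the mean, and the ranges 827 to 1149 among cells and 353 to 740 among sEVs. For the host gene percentage the differences were 0.973 to 1.81 in astrocytes, 0.698 to 1.23 in microglia, -0.842 to -0.421 in neurons and 0.426 to 0.705 in the mean, and the ranges 3.61 to 3.79 among cells and 1.85 to 2.38 among sEVs. Members called by level numbered 11 to 27, 0 to 6 and 38 to 47 between sEVs and cells of astrocytes, microglia and neurons, and 6 to 13, 142 to 202 and 48 to 79 among their cells, 27 to 43, 168 to 228 and 83 to 113 among their sEVs and 55 to 87 in the mean. Members called by usage numbered 0 to 2, 0 to 1 and 0 to 4 between sEVs and cells of astrocytes, microglia and neurons, and 1 to 3, 4 to 12 and 6 to 10 among their cells. In these fits 903 to 956 members were tested by level instead of 587, and 846 to 899 by usage instead of 544. The number detected in microglia turned positive without replicate 3 of the microglia cells (29.2) and without replicate 1 of the microglia sEVs (57.8). With 3 libraries a group, members of few reads lie below what these tests can call.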
